A study of Mus musculus with 38 samples.

Results

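Bhmt and Nnmt encode enzymes that sit at opposite ends of the liver's methyl-group supply, and both were measured in every segment of a spatial transcriptomic study of cholestatic mouse liver. They are 2 of 10547 genes in the count table and were chosen by name because of their measured values in these same 38 segments, so their levels and differences are given as a description, with no test. Alb, the albumin transcript, was read beside them as the reference for hepatocyte RNA. Tests are given for the other 66 measured genes of 4 lists of related enzymes and, as counts, for lists of cell type markers and all genes. The gene symbols were placed with RefSeq on GRCm38.p6, where Bhmt lies on the minus strand at chr13:93616891-93637758 and Nnmt at chr9:48538002-48607655.

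The livers came from WT mice and from TrailΔmye mice, in which Trail (Tnfsf10) was deleted with a Cre driven by Lyz2, a promoter active in macrophages, monocytes and neutrophils. Trail fl/fl littermates also served as controls in the study, but the labels here name WT alone. The level of Tnfsf10 was not analysed here, so the genotype labels stand as given. Mice of each genotype received a control diet (CON) or a diet with DDC, which injures bile ducts, in rounds of 5 days separated by 3 days of chow over 21 days, and all were euthanized on day 22. The mice were C57BL/6 and are described as age- and gender-matched without the sex of any group. On formalin-fixed sections, GeoMx segments were captured by PanCK (cholangiocytes) or IBA1 (macrophages) in periportal regions of interest (ROIs) and by IBA1 in parenchymal ROIs. In the order WT CON, WT DDC, TrailΔmye CON and TrailΔmye DDC, there were 3, 4, 4 and 5 PanCK segments, 2, 4, 4 and 5 periportal IBA1 segments, and 1, 2, 2 and 2 parenchymal IBA1 segments. No label ties a segment to a mouse, so segments of a group can share an animal, and every p-value below is too small to stand for animals.

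Betaine-homocysteine methyltransferase, the product of Bhmt, is an abundant hepatocyte enzyme that passes a methyl group from betaine, the oxidation product of choline, to homocysteine and so remakes methionine. Methionine is turned by Mat1a into S-adenosylmethionine, the donor for the liver's methyltransferases. One of these is nicotinamide N-methyltransferase, the product of Nnmt, which uses the donor to methylate nicotinamide, and aldehyde oxidases such as Aox3 oxidise the methylated product further.

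The promoter of Bhmt is shown with that of Alb, because the results below turn on how the 2 transcripts moved apart. Each line gives the 250 bases before the RefSeq start site, 5′ to 3′ on the gene's own strand, at chr13:93637759-93638008 (minus strand) for Bhmt and chr5:90460620-90460869 (plus strand) for Alb in GRCm38.p6.
Bhmt: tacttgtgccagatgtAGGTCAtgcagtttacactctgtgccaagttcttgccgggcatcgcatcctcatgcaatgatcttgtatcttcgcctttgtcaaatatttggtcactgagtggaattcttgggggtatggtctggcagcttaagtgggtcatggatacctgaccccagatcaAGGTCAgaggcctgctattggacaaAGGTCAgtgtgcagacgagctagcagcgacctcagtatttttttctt
Alb: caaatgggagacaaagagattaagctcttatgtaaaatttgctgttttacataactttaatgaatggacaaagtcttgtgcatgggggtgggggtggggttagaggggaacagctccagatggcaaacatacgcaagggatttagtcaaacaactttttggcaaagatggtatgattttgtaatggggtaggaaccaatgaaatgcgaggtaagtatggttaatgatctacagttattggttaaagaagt
Capitals mark AGGTCA, the half-site read by many nuclear receptors, which was searched on both strands. It occurred 3 times in the Bhmt window and not in the Alb window. Of 32851 promoters with a window of this length, 14.0% held it at least once and 0.131% held it 3 times or more. A match is a string of letters in this window and says nothing of binding in these livers.

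Every segment held hepatocyte RNA beside that of its own class. Q3-normalized Alb, on the authors' scale that sets the 75th percentile of each segment to one value (10.5), ranged from 603 to 10538 over the 38 segments. The 10 cholangiocyte markers summed to 540.0 to 2198 in PanCK segments against 40.7 to 378 in periportal IBA1 segments, and all 10 were called higher in PanCK segments of the same ROIs. The 10 macrophage markers summed to 352 to 1155 in periportal IBA1 segments against 52.5 to 160.3 in PanCK segments. Fewer hepatocytes in a segment and less of a transcript per hepatocyte cannot be told apart from a normalized level alone, and the ratio to Alb sets each gene against another hepatocyte transcript of the same segment. The 10 fibroblast and stellate markers moved with diet, their sum in periportal IBA1 segments being 63.0 to 73.5 on the control diet and 809 to 1292 on DDC in WT, and 84.0 to 243 and 634 to 1558 in TrailΔmye mice, with 4 and 6 of the 10 called higher. Their part in the results below was not tested. Total counts ran from 20319 to 106664 in WT and from 33832 to 836971 in TrailΔmye segments. The lowest count of 1 was held by 53.6% to 70.3% of genes in WT control segments. In periportal TrailΔmye DDC segments it was held by 0% to 1.97%. In WT control segments 1 count equalled 3.50 to 5.25 on the Q3 scale, close to the 75th percentile of 10.5 that sets the scale. The part of this in the normalized levels was not tested.

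In WT mice, Bhmt was lower on DDC than on the control diet in all 3 classes, and no segment of one diet reached the range of the other. In PanCK segments its Q3-normalized level was 126, 105 and 94.5 on the control diet, and 19.8, 18.9, 13.1 and 10.5 on DDC. The log2 fold change from edgeR was -2.83 (SE 0.43). In periportal IBA1 segments the level was 299 and 415 on the control diet. There it was 21.0, 47.3, 31.5 and 45.5 on DDC, a log2 fold change of -3.27 (SE 0.44). The raw counts behind these values were small on DDC, 5 to 9 in PanCK and 4 to 13 in periportal IBA1 segments. The single parenchymal IBA1 segment on the control diet read 409.7, and those on DDC 116 and 111.

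In TrailΔmye mice, the diets overlapped in normalized Bhmt in both periportal classes. PanCK segments read 45.5, 31.5, 15.8 and 35.7 on the control diet and 49.7, 51.8, 71.2, 26.8 and 46.2 on DDC, a log2 fold change of 0.62 (SE 0.34). Periportal IBA1 segments read 84.0, 55.1, 91.9 and 72.2 on the control diet and 67.4, 84.8, 65.7, 29.9 and 66.0 on DDC, a log2 fold change of -0.29 (SE 0.31). These periportal levels lay within or above the ranges of DDC-fed WT mice, and in each of the 3 classes every TrailΔmye control segment lay below every WT control segment. The lowest value of each periportal DDC group came from ROI 035, the most deeply counted ROI. Parenchymal IBA1 segments read 101 and 64.7 on the control diet and 105 and 179 on DDC. The difference between the diet effects of the genotypes on the log2 scale was 3.45 (SE 0.54) in PanCK and 2.98 (SE 0.55) in periportal IBA1 segments, given as a size with no test.

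**Figure D1:**
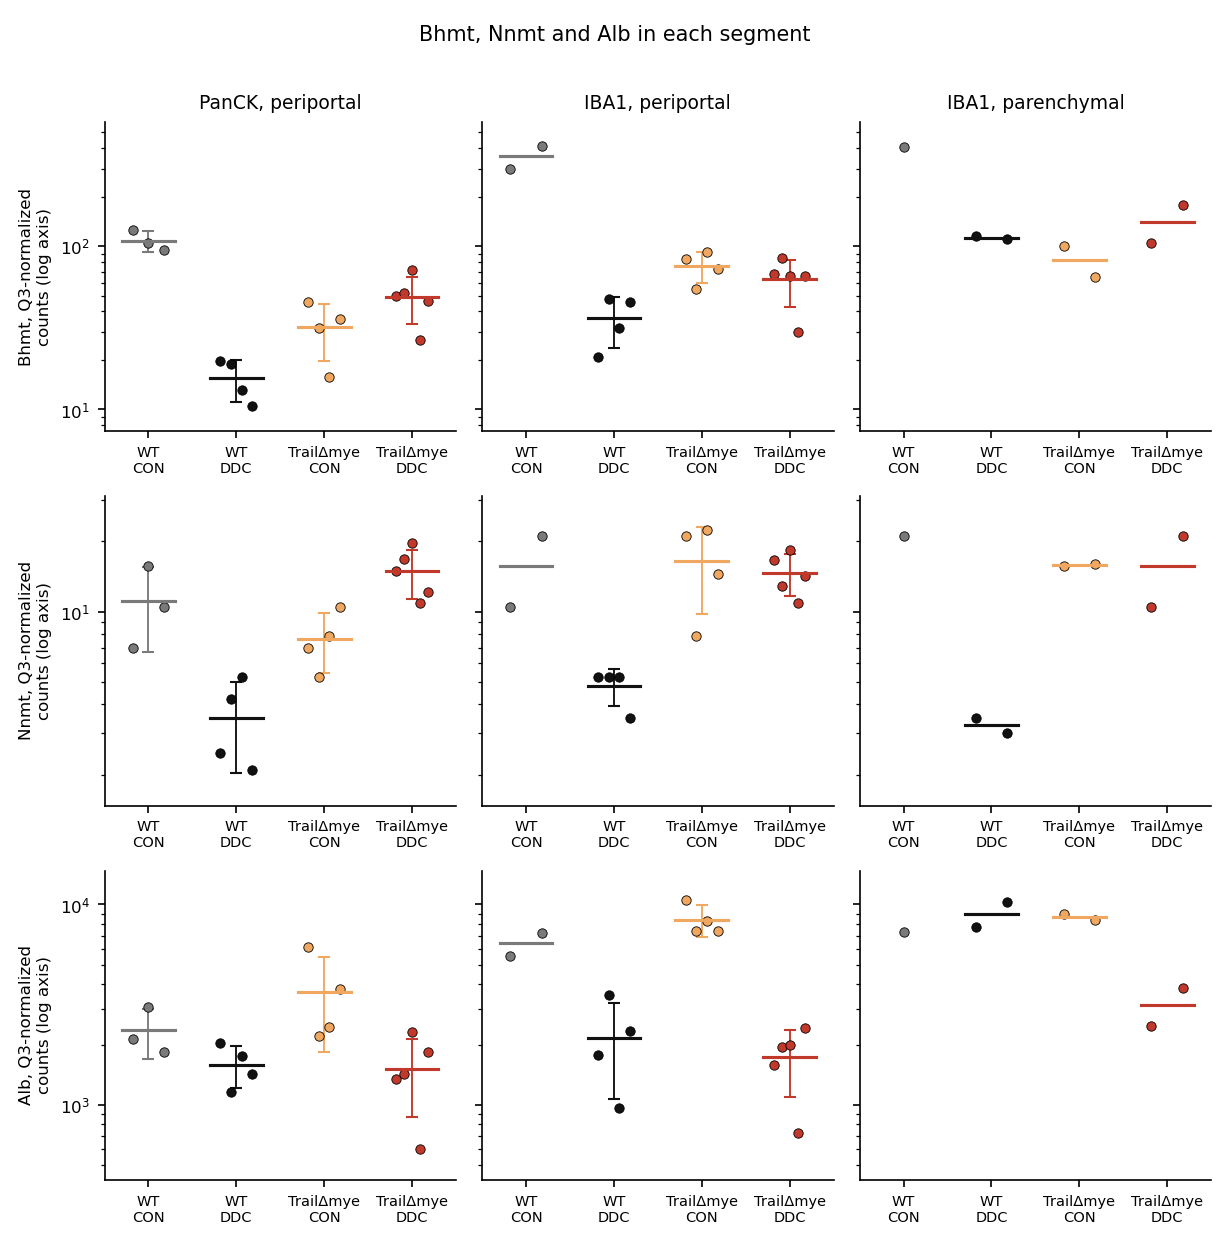
Q3-normalized Bhmt, Nnmt and Alb (log axes) in each of the 38 segments, by class (columns), genotype and diet; horizontal lines are group means for 2 or more segments and bars are SD for 3 or more. Bhmt is highest in the WT control groups (94.5 to 415) and Nnmt lowest in the WT DDC groups (2.10 to 5.25).

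Ordered by mean normalized Bhmt, the parenchymal and periportal IBA1 groups of WT mice on the control diet (409.7 and 357) stood first, followed by TrailΔmye DDC (142) and WT DDC (113) parenchymal IBA1 segments and WT control PanCK segments (109). The remaining groups ran from 82.8 in parenchymal IBA1 segments of TrailΔmye control mice down to 15.6 in PanCK segments of DDC-fed WT mice. Neighbours in this order overlapped, with 1 exception. The periportal IBA1 segments of WT control mice (299 to 415) did not overlap the next group (105 to 179).

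In the periportal classes Alb was itself lower on DDC, with overlapping diet groups in PanCK and separate ones in IBA1 segments. In WT PanCK segments it ranged from 1833 to 3094 on the control diet and from 1153 to 2027 on DDC, a log2 fold change of -0.59 (SE 0.32). In WT periportal IBA1 segments it was 5530.5 and 7243 on the control diet and 966 to 3524 on DDC (log2 -1.57, SE 0.39). In TrailΔmye mice the log2 fold change was -1.28 (SE 0.28) in PanCK and -2.28 (SE 0.32) in periportal IBA1 segments. The periportal TrailΔmye groups, 7339.8 to 10538 on the control diet and 721 to 2408 on DDC, did not overlap. In the parenchyma Alb was not lower on DDC in WT mice, with 7264 on the control diet and 7682 and 10233 on DDC, whereas in TrailΔmye mice it was 8974 and 8356 on the control diet and 2476 and 3849.8 on DDC. The Alb ratio below therefore has a denominator that itself differs between the diets.

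Per 1000 Alb counts, Bhmt took opposite directions in the 2 genotypes, in each of the 3 classes. In WT PanCK segments the ratio was 58.9, 34.0 and 51.6 on the control diet and 9.76, 16.4, 7.51 and 7.37 on DDC. In WT periportal IBA1 segments it was 54.1 and 57.3 on the control diet and 11.9, 13.4, 32.6 and 19.4 on DDC. In the parenchyma the WT control segment read 56.4 and the DDC segments 15.0 and 10.9. The WT ratio was thus lower on DDC without overlap, with log2 differences of -2.27 (SE 0.36, n = 4 and 3), -1.64 (SE 0.33, n = 4 and 2) and -2.14 (n = 2 and 1).

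In TrailΔmye PanCK segments the ratio was 7.38, 14.4, 6.43 and 9.42 on the control diet and 36.8, 36.4, 31.0, 44.4 and 25.2 on DDC. In TrailΔmye periportal IBA1 segments it was 7.97, 7.51, 11.1 and 9.84 on the control diet and 42.4, 43.5, 33.0, 41.5 and 27.4 on DDC. In the parenchyma it was 11.2 and 7.74 on the control diet and 42.4 and 46.4 on DDC. The TrailΔmye ratio was higher on DDC without overlap, with log2 differences of 1.93 (SE 0.29), 2.04 (SE 0.18) and 2.25 (SE 0.28). Total counts also differed between these diet groups. DDC segments of TrailΔmye mice held 172180 to 836971 in PanCK, 158220 to 568720 in periportal IBA1 and 33832 to 48357 in parenchymal IBA1 segments, against 35079 to 54834, 80722 to 220382 and 252265 to 265759 on the control diet. The part of depth was not tested. Without ROI 035 the PanCK and periportal IBA1 differences were 1.84 and 2.0.

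**Figure D2:**
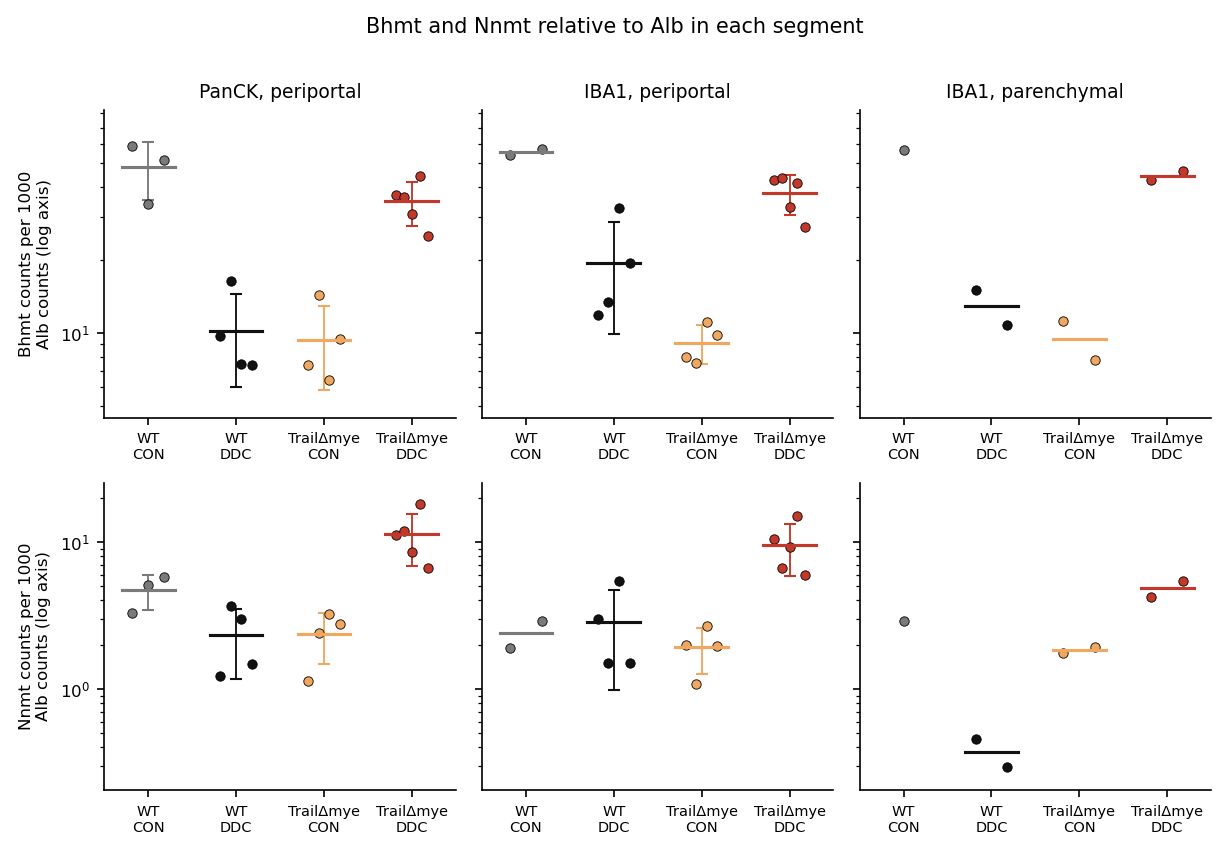
Counts of Bhmt (top) and Nnmt (bottom) per 1000 Alb counts in each segment (log axes), by class, genotype and diet, with means for 2 or more segments and SD for 3 or more. Bhmt per Alb is high in WT control (34.0 to 58.9) and TrailΔmye DDC segments (25.2 to 46.4) and low in TrailΔmye control segments (6.43 to 14.4).

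The size of the TrailΔmye difference depended on the reference transcript. With the sum of 8 other hepatocyte markers in place of Alb, the log2 difference of the diets was 0.93 (SE 0.28), 1.18 (SE 0.17) and 1.48 (SE 0.36) in PanCK, periportal IBA1 and parenchymal IBA1 segments of TrailΔmye mice. In WT mice it was -2.36 (SE 0.37), -1.73 (SE 0.28) and -1.69. The groups again did not overlap in any of the 6 comparisons, of which the WT parenchymal one sets 2 DDC segments against 1 control segment. How many of all genes separate likewise was not counted.

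The genotypes were also compared on the control diet, a comparison added after the data were seen. Bhmt per Alb was lower in TrailΔmye than in WT control segments by a log2 difference of -2.39 (SE 0.35) in PanCK and -2.63 (SE 0.14) in periportal IBA1 segments, or -1.41 and -1.76 with the 8 other markers. On DDC it was higher in TrailΔmye PanCK segments by 1.82 (SE 0.30) without overlap. In periportal IBA1 segments on DDC the difference was 1.05 (SE 0.35), and the groups overlapped (27.4 to 43.5 against 11.9 to 32.6).

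A Y-linked target moved with the TrailΔmye control group. Gm21783, a target on chromosome Y, read 1.31 to 6.30 on the Q3 scale in its 10 segments and 14.0 to 126 in the other 28. Every comparison that uses the TrailΔmye control group, for Bhmt, Nnmt or any other gene, is crossed with this difference. Cyp3a41a, a cytochrome P450 that is higher in female than in male mouse liver, read 28.0 to 154 in the same 10 segments (median 50.6). The others read 2.47 to 73.5 (median 14.6), with overlap over the pooled classes but none within a class. TrailΔmye control PanCK segments read 28.0 to 52.5 against at most 25.2 in other PanCK segments. The values were 40.3 to 152 against at most 30.7 in periportal IBA1 and 144 to 154 against at most 73.5 in parenchymal IBA1 segments. A difference in sex and the TrailΔmye control group cannot be told apart. The WT diet groups and the DDC groups of both genotypes all lay in the higher range of Gm21783.

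**Figure D3:**
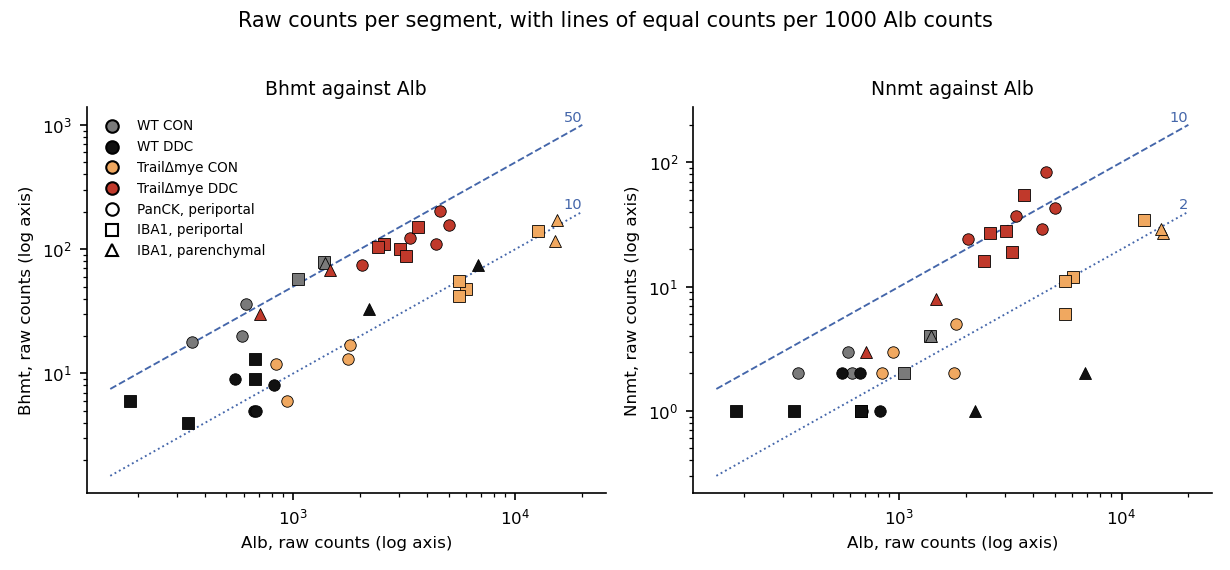
Raw counts of Bhmt (left) and Nnmt (right) against raw counts of Alb in each segment (log axes); colour gives genotype and diet, shape the class, and lines mark equal counts per 1000 Alb counts. WT control and TrailΔmye DDC segments hold 25.2 to 58.9 Bhmt counts per 1000 Alb counts and TrailΔmye control segments 6.43 to 14.4.

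Nnmt was far scarcer than Bhmt in counts. In WT mice 14 of 16 segments held 3 counts or fewer, which is the floor used here, and 7 held 1 count, the lowest value in the table. WT control segments held 2 to 4 counts and WT DDC segments 1 or 2. Normalized, WT PanCK segments read 7.00, 15.8 and 10.5 on the control diet and 2.47, 4.20, 5.25 and 2.10 on DDC. All of these are at or under the floor, so no fold is given. The 2 WT segments above it, IBA1 segments on the control diet, held 4 counts.

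In TrailΔmye mice 4 of 22 segments were at or under the floor. PanCK segments read 7.00, 5.25, 7.88 and 10.5 on the Q3 scale on the control diet and 14.9, 16.8, 19.6, 10.9 and 12.2 on DDC. The control segments held 2 to 5 counts. The groups did not overlap, by a margin of 10.5 to 10.9, and the log2 fold change was 0.85 (SE 0.38). Periportal IBA1 segments read 21.0, 7.88, 22.3 and 14.4 on the control diet and 16.7, 12.9, 18.4, 10.9 and 14.3 on DDC, a log2 fold change of -0.27 (SE 0.25) with overlap. Parenchymal segments read 15.8 and 16.0 on the control diet and 10.5 and 21.0 on DDC. The lowest DDC values of the 2 periportal classes, both 10.9, were those of ROI 035, where the negative control probe itself read 5.66 in PanCK and 5.51 in periportal IBA1.

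Relative to Alb, Nnmt was higher on DDC in all 3 classes of TrailΔmye mice. PanCK segments held 1.14, 2.39, 3.22 and 2.77 Nnmt counts per 1000 Alb counts on the control diet and 11.1, 11.8, 8.53, 18.1 and 6.63 on DDC. Periportal IBA1 segments held 1.99, 1.07, 2.69 and 1.97 on the control diet and 10.5, 6.63, 9.25, 15.1 and 5.92 on DDC. The log2 differences were 2.26 (SE 0.41) and 2.29 (SE 0.37), without overlap, and 1.39 (SE 0.19) in the parenchyma. With the 8 other markers they were 1.26, 1.42 and 0.62, also without overlap. Without ROI 035, and per Alb, the periportal differences were 2.06 in PanCK and 2.10 in IBA1 segments. In WT segments the same ratio rests on 1 to 4 counts, and its groups overlapped in PanCK and periportal IBA1.

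Among DDC-fed mice, normalized Nnmt read higher in TrailΔmye than in WT segments of both periportal classes without overlap. The TrailΔmye segments were also counted more deeply. Total counts were 172180 to 836971 against 46675 to 61665 in PanCK segments. They were 158220 to 568720 against 20319 to 34302 in periportal IBA1 segments. PanCK segments held 24 to 83 counts in TrailΔmye and 1 or 2 in WT mice, and against 3 counts per WT segment the level was at least 2.14-fold higher. Periportal IBA1 segments held 16 to 55 counts in TrailΔmye and 1 count in each WT segment. There 3 counts in a WT segment correspond to a mean level of 14.4 against a TrailΔmye mean of 14.6, so that no bound above the floor is given. A higher level is thus not shown for that class.

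Class and location were compared next, over all diets and genotypes. Within the 15 ROIs that held both periportal classes, Bhmt was lower in the PanCK than in the IBA1 segment in 14 ROIs, with a log2 fold change of -0.87 (SE 0.17), beside -0.70 (SE 0.15) for Alb. Per Alb, the Bhmt difference was -0.33 (SE 0.18). Nnmt differed by -0.18 (SE 0.16) and per Alb by 0.26 (SE 0.21). Periportal IBA1 segments held less Bhmt than parenchymal ones (log2 -0.83, SE 0.23) and also less Alb (-0.94, SE 0.22), and the ratio differed by 0.04 (SE 0.18). Nnmt itself differed by 0.004 (SE 0.23), while Nnmt per Alb was higher in the periportal segments by 1.00 (SE 0.38). Its mean per 1000 Alb counts, periportal against parenchymal, was 2.4 and 2.89 in WT control and 1.93 and 1.84 in TrailΔmye control segments. On DDC it was 2.85 and 0.37 in WT and 9.49 and 4.85 in TrailΔmye segments. The WT DDC segments were all at or under the floor of 3 Nnmt counts, so the 1.00 is a fitted average and no size.

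Bhmt2, the neighbouring paralog at chr13:93656097-93674302 that uses S-methylmethionine as methyl donor, was scarce. It held 1 to 6 counts in WT PanCK segments, and its log2 fold change on DDC there was 0.19 (SE 0.66). Its Q3 levels in periportal IBA1 segments of TrailΔmye mice were 8.75 to 21.0 on the control diet and 5.25 to 10.5 on DDC. This fall passed the test (log2 -0.91, SE 0.25, edgeR adjusted p = 0.0101).

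The other enzymes of these pathways were taken from 4 lists: the methionine cycle and betaine (18 genes without Bhmt), folate one-carbon enzymes (14), small-molecule methyltransferases (11 without Nnmt) and nicotinamide and NAD enzymes (23). They were tested over segments with edgeR's quasi-likelihood test and Benjamini-Hochberg adjustment over all 10547 genes. In WT PanCK segments, 2 of the 66 passed, both lower on DDC, where 0.417% of all genes were called lower. Gnmt, which uses up S-adenosylmethionine to methylate glycine, fell from 28.0 to 89.3 on the control diet to 8.40 to 22.2 on DDC (log2 -2.06, SE 0.50, edgeR adjusted p = 0.0140). Aox3 fell from 17.5 to 68.3 to 2.10 to 9.89 (log2 -2.85, SE 0.53, edgeR adjusted p = 0.000201). Without WT control ROI 003 neither passed, and without WT DDC ROI 009 or 013 only 1 did.

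In WT periportal IBA1 segments, 9 of the 66 passed, all lower on DDC, against 1.04% of all genes. The median log2 fold change was -0.74 over the 66 and -0.16 over all genes, and 5 of the 9 hepatocyte markers were also called lower. Of the 10 periportal hepatocyte markers 5 were called lower, with a median of -2.04, and 2 of them lay below Bhmt. Aox3 was at 1 count in every DDC segment and at 84.0 and 142 on the control diet, at least 7.82-fold higher than 3 counts per DDC segment (edgeR adjusted p = 1.24e-07). Gnmt fell by 3.20 on the log2 scale (SE 0.51) and Aldh1l1, which oxidises 10-formyltetrahydrofolate, by 3.04 (SE 0.55). Mat1a fell by 2.42 (SE 0.49). Cbs, which takes homocysteine into cysteine synthesis, was called lower as well (edgeR adjusted p = 0.0317). Its level was 47.3 and 52.5 on the control diet, but no DDC segment held more than 3 Cbs counts, so no fold is given. Without WT control ROI 005, leaving 1 control segment, 3 genes passed.

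In TrailΔmye PanCK segments, 1 of the 66 passed, lower on DDC, against 0.664% of all genes. It was Inmt, an amine N-methyltransferase, which went from 17.5 to 33.6 to 3.50 to 5.04 (log2 -2.50, SE 0.31, edgeR adjusted p = 3e-09). Gnmt and Aox3, the genes called in WT PanCK segments, read log2 -0.10 (SE 0.32) and 0.44 (SE 0.48). The Aox3 value is set against control segments of at most 3 counts and is a fitted value. Without ROI 035, 2 genes passed. The control group here is the one set apart by Gm21783, and the part of that difference in the call was not tested.

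In TrailΔmye periportal IBA1 segments, 20 of the 66 passed, all lower on DDC, against 5.18% of all genes. These calls too use the control group set apart by Gm21783, and the part of that difference was not tested. The median log2 fold change was -0.52 over the 66 and 0.07 over all genes, and 6 of the 9 hepatocyte markers were called lower. By list, 7 of 18 methionine and betaine genes, 5 of 14 folate genes, 5 of 11 methyltransferases and 3 of 23 nicotinamide and NAD genes passed. Inmt fell by 2.57 (SE 0.23) on the log2 scale, Haao of the kynurenine route to NAD by 1.53 (SE 0.23) and Aldh1l1 by 1.45 (SE 0.27). Pemt, which makes phosphatidylcholine by methylation, fell by 1.37 (SE 0.24), Gnmt by 1.17 (SE 0.31), Ahcy, which splits S-adenosylhomocysteine, by 1.09 (SE 0.29) and Cbs by 1.26 (SE 0.28). Mat1a (log2 -0.77, SE 0.30) and Nampt, which returns nicotinamide to NAD (-0.20, SE 0.25) did not pass. In this comparison Bhmt and Nnmt, at -0.29 and -0.27, lay above all 9 hepatocyte markers, whose median was -1.76. They did not stand apart from the zonal lists. Of 10 periportal hepatocyte markers (-1.75 to -0.04, median -1.21), 8 lay below Bhmt and 9 below Nnmt, and of 10 pericentral ones (-3.13 to 0.22, median -1.03), 8 lay below each.

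**Figure D4:**
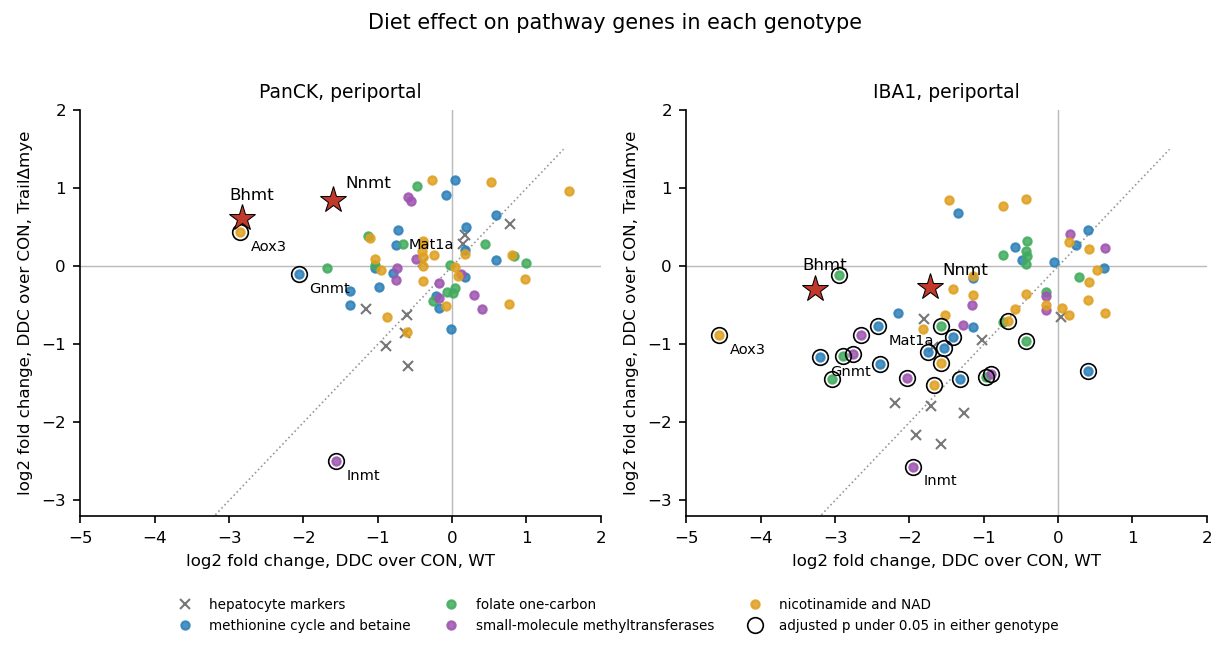
log2 fold change of DDC over control diet in WT (x axis) against TrailΔmye mice (y axis) in PanCK (left) and periportal IBA1 segments (right), for the 66 pathway genes (points by list), Bhmt and Nnmt (stars) and 9 hepatocyte markers (crosses); rings mark genes called in either genotype and the dotted line is equality. Bhmt is at -2.83 in WT and 0.62 in TrailΔmye PanCK segments, next to Aox3 (-2.85 and 0.44).

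A test of the difference between the genotypes' diet effects was added after the data were seen. It called 1 of the 66 genes in each periportal class, Aox3 in both, where 0.104% of all genes were called in that direction in PanCK and 0.0569% in periportal IBA1 segments. Aox3 held 1 count in every WT DDC periportal IBA1 segment. In PanCK segments it held at most 4 counts in WT DDC and at most 3 in TrailΔmye control mice. The difference therefore has fitted sizes that are neither folds nor bounds. The difference was 3.28 (SE 0.69, edgeR adjusted p = 0.00920) and 3.67 (SE 0.68, edgeR adjusted p = 0.00459) on the log2 scale. DESeq2 did not call it (adjusted p = 0.150 and 0.386), TMM factors gave 0.0890 and 0.0470, limma 0.00267 and 0.00112, and thinning to 1 total 0.767 and 0.00397. These span the range in PanCK segments, while in periportal IBA1 segments the lowest adjusted p was 2.07e-05, with counts of 1 set to 0. With 1 segment left out Aox3 was called in 13 of 16 and 13 of 15 fits. With at most 3 Aox3 counts in TrailΔmye control PanCK segments, the PanCK size that follows is a fitted value and no fold. The genotypes differed in Aox3 on the control diet, by -2.64 (SE 0.53, edgeR adjusted p = 0.00171) in PanCK and -3.27 (SE 0.37, edgeR adjusted p = 6.01e-08) in periportal IBA1 segments. There it was the 1 pathway gene called lower in PanCK (0.152% of all genes) and 1 of 2 in periportal IBA1 segments (0.161% of all genes), beside Gldc of the glycine cleavage system at -2.24 (SE 0.45). Without WT control ROI 003 the PanCK call was lost, and without ROI 005 1 pathway gene was called in periportal IBA1 segments. Like Bhmt, Aox3 stood highest in the WT control group, with 17.5 to 142 in its 6 segments and 2.10 to 27.0 in the other 32. The TrailΔmye control segments carried the Gm21783 values given above.

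Between DDC-fed mice, 2 of the 66 genes passed in PanCK segments, both higher in TrailΔmye mice, against 0.0948% of all genes. Mat1a read 40.6 to 114 in TrailΔmye and 21.0 to 39.5 in WT segments (log2 1.77, SE 0.35, edgeR adjusted p = 0.00523). Gnmt differed by 1.64 (SE 0.39, edgeR adjusted p = 0.0426), with overlapping groups. With 1 segment left out, Mat1a passed in 14 of 16 fits and Gnmt in 6 of 16, and neither WT DDC ROI 009 nor 013 could be left out without losing both. Periportal hepatocyte markers moved beside these genes in PanCK segments. The median log2 fold change of the 10 was 1.12, against 0.21 over all genes and -0.17 for the 9 hepatocyte markers, with 9 at an unadjusted p under 0.05 and 1 called. Bhmt (1.66) lay above 9 of the 10 and Nnmt held 1 or 2 counts in WT segments here. The part of these markers in the calls was not tested. In periportal IBA1 segments edgeR called 0 of the 66, where it called 0.019% of all genes in either direction. At an unadjusted p under 0.05 it counted 4 genes, DESeq2 called 0 and limma 1 after adjustment.

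Across diets and genotypes, 11 pathway genes were called lower and 1 higher in PanCK than in periportal IBA1 segments of the same ROI, against 10.2% and 7.67% of all genes. Of the marker lists, 8 of 9 hepatocyte, 7 of 10 periportal hepatocyte and 6 of 10 pericentral hepatocyte markers were also called lower. Their part in the pathway calls was not tested. The lower pathway genes included Mat1a (log2 -0.83, SE 0.17), Gnmt (-0.61, SE 0.18) and Nampt (-0.69, SE 0.17). The higher pathway gene, named after its value was seen, was Chdh, the choline dehydrogenase that makes the betaine precursor (0.86, SE 0.17, higher in 13 of 15 ROIs). Without ROI 033, 7 genes passed in all. Between the locations, 8 genes were called lower in periportal than in parenchymal IBA1 segments, against 1.35% of all genes, among them Mat1a (-0.85, SE 0.24) and Ahcy (-0.99, SE 0.24). That count fell to 2 without the parenchymal segment of WT DDC ROI 012 or of TrailΔmye DDC ROI 038, and to 4 or 5 without 1 of 6 other segments. Between the locations 5 of 9 hepatocyte, 1 of 10 periportal hepatocyte and 6 of 10 pericentral hepatocyte markers were also called lower in periportal segments. For diet in the 7 parenchymal segments, 1 gene passed, Inmt, lower on DDC (log2 -2.05, SE 0.45, edgeR adjusted p = 0.0208), against 0.465% of all genes. That fit adds 1 diet effect over both genotypes, so Bhmt per Alb averaged to 0.49 (SE 1.09) there while the genotypes stood at -2.14 and 2.25.

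The genes whose levels ranked most like Bhmt over the 38 segments were Scp2, a peroxisomal sterol carrier and thiolase (Spearman 0.864), the cytochrome P450 Cyp2d10 (0.831), the complement component C6 (0.819), the retinol carrier Rbp4 (0.799) and Apoc3 (0.795), ranked among the 3088 genes whose counts averaged at least 10. Alb itself reached 0.590. Within the classes, Scp2 stood at 0.738 in PanCK, 0.649 in periportal IBA1 and 0.786 in parenchymal IBA1 segments. Its Q3 level was 63.0 to 478 in the 6 WT control segments and 10.5 to 133 in the other 32. For Nnmt the closest were Asl of the urea cycle (0.693), the serine dehydratase Sds (0.689), Mat1a (0.685), the aspartate aminotransferase Got1 (0.676) and Tmem219 (0.656), with Alb at 0.243 and Bhmt at 0.509. Asl and Sds are also on the list of periportal hepatocyte markers. These correlations describe segments that share groups, depth and hepatocyte content, and carry no test. In 18 of the 38 segments Nnmt held 3 counts or fewer, and in 7 it held 1. The ranks of Nnmt among those segments rest in large part on their normalization factors.

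**Figure D5:**
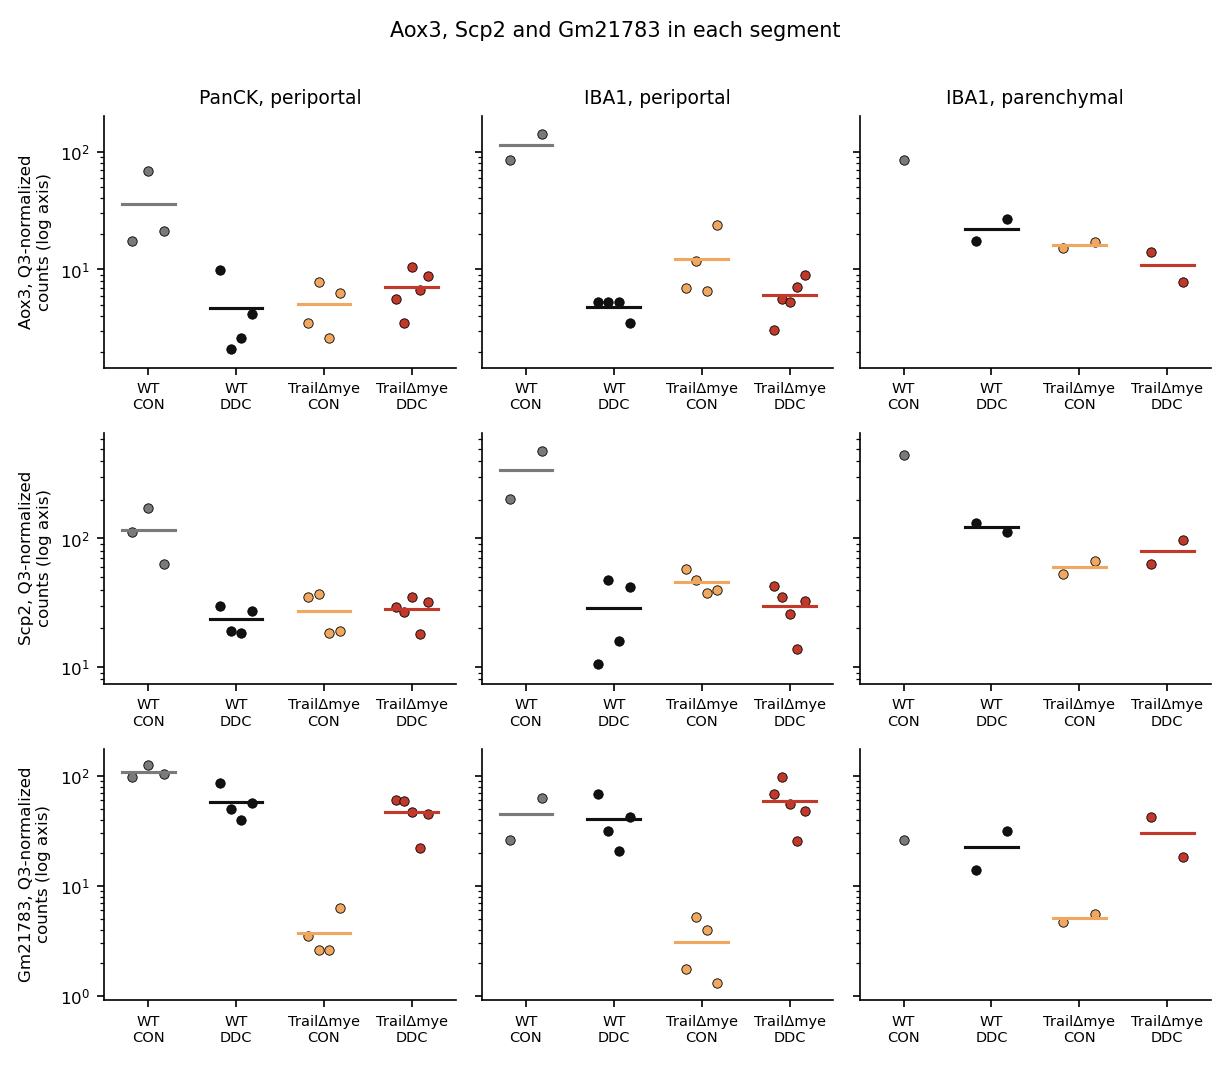
Q3-normalized Aox3, Scp2 and the Y-linked Gm21783 (log axes) in each segment by class, genotype and diet, with lines at the group means. Aox3 and Scp2 are highest in the WT control groups, and the TrailΔmye control group is set apart by low Gm21783 (1.31 to 6.30).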

How the data were processed

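GeoMx Whole Transcriptome Atlas libraries of 38 segments were analysed from 2 deposited tables. The deposited expected counts are the authors' values per target and segment after sequencing, their quality control and a filter on the limit of quantification in R; all but 3 genes were whole, and these were rounded for count tests. The submitters' processing notes name mm10 and bcl2fastq, and no aligner is given in the sources used here. The deposited signal values are the authors' Q3-normalized counts, which were checked to equal the counts times 1 factor per segment. The standard errors given rest on the spread between segments, which can share an animal, and do not cover the spread between animals.

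Groups came from the labels of genotype, diet, location and morphology marker. Log2 fold changes were fitted for each class with edgeR 4.0.16 (upper-quartile factors, quasi-likelihood test, R 4.3.3) over all 10547 genes, with calls below 0.05 after Benjamini-Hochberg adjustment. The 2 periportal classes were compared within ROIs (ROI as a block), since the labels give both segments of a periportal ROI 1 number; the WT control ROI 001 has no IBA1 partner and was left out there. Periportal and parenchymal IBA1 segments were compared with a term for the group. The standard error is the log2 fold change over the square root of F. Ratios to Alb were formed from raw counts of the same segment, and their differences are means of log2 ratios. The fits were tested on simulated data. Alternatives were TMM factors, DESeq2 1.42.0, limma 3.58.1 on log2(Q3 + 1), filterByExpr, counts of 1 set to 0, thinning to 1 total and each segment left out. Plots used Python 3.11.15 and matplotlib 3.10.9.

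The members, lists, tests and naming rule were chosen with earlier results of these data known. The rule names Bhmt, Nnmt and Alb; per comparison up to 3 highest and 3 lowest called pathway genes whose groups do not overlap; Bhmt2, Mat1a, Gnmt, Ahcy, Cbs, Pemt, Aox3 and Nampt; and the 5 genes most similar to each member. Sex-linked genes were looked at after the data were seen. RefSeq matched 10512 of the 10547 symbols.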

Additional observations from a re-analysis of the deposited data

Results flagged for a closer look

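Bhmt per 1000 Alb counts moved in opposite directions with diet in the 2 genotypes, with every segment of each group on its own side. The log2 difference, DDC minus control, was -2.27 in WT and 1.93 in TrailΔmye PanCK segments. It was -1.64 and 2.04 in periportal IBA1 segments, and -2.14 and 2.25 in parenchymal IBA1 segments, where WT mice had 1 control segment. Nnmt per 1000 Alb counts did the same in parenchymal IBA1 segments alone, with -2.98 in WT and 1.39 in TrailΔmye mice. The WT value comes from 1 control segment with 4 Nnmt counts and DDC segments with 1 and 2, and gives a direction but no size. These differences between the genotypes were not tested, because both genes were chosen on the same segments. Bhmt per Alb was lower in TrailΔmye than in WT mice on the control diet, where the Y-linked Gm21783 also set the TrailΔmye control group apart, and the part of this difference was not tested.

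The Q3-normalized Nnmt level of the periportal IBA1 segment of WT DDC ROI 013 stood below the other 3 of its group, at 3.50 against 5.25. All 4 segments held 1 Nnmt count, so the gap is that of their normalization factors. In all, 24 sets of values from groups of 4 or 5 segments were looked at with Dixon's 95% critical values, which by construction mark about 1 in 20 groups by chance.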

How the results depend on the processing

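Under settings that kept all segments, the log2 fold change of Bhmt stayed within the spread between segments in 76 cases and moved in 3, each by thinning in periportal IBA1 segments. Bhmt per Alb stayed in 18 and moved in 4. The causes of these moves were not tested. With the 8 other hepatocyte markers in place of Alb, the TrailΔmye diet differences were 0.93 for Bhmt and 1.26 for Nnmt in PanCK, and 1.18 and 1.42 in periportal IBA1 segments. With the negative probe subtracted, Nnmt per Alb gave 2.94 for diet in TrailΔmye PanCK, -0.87 for diet in the parenchyma and 3.17 for genotype on DDC in PanCK segments. Subtracted Nnmt counts were kept from falling below a small positive constant. In WT DDC segments of these classes Nnmt held 1 or 2 counts and the probe 1.08 to 1.47. The parenchymal and genotype values rest in part on that constant and are neither folds nor bounds. The fitted values for Nnmt that follow compare at least 1 WT group held at or under 3 counts, except those of TrailΔmye mice. Those of the parenchyma also include such a group, the WT DDC segments. They depend on the prior count of the fit and are neither folds nor bounds. Thinning every segment to 1 total gave log2 fold changes of -3.92 for Bhmt in WT periportal IBA1 segments, and for Nnmt -2.73 in WT PanCK, -0.91 in WT and 0.49 in TrailΔmye periportal IBA1 segments for diet (the latter against -0.27, a change of sign), and 3.19 and 0.49 for genotype on DDC. With counts of 1 set to 0, Nnmt gave -7.05 for diet in WT periportal IBA1 segments and 2.60 and 6.90 for genotype on DDC, against -1.73, 2.03 and 1.57 with the counts as deposited, and limma gave -1.0 for diet in the parenchyma. The spread of these values shows that no size can be given for Nnmt against a WT group at the floor.

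The number of pathway genes called moved more. With filterByExpr it was 5 for diet in WT PanCK, 4 in the parenchyma, 4 and 1 for genotype on DDC in PanCK and periportal IBA1, and 6 for PanCK against IBA1. With limma it was 16 and 9 for diet in WT and TrailΔmye periportal IBA1, and 1 and 1 for genotype on DDC. DESeq2 gave 2 for diet in the parenchyma, 1 for genotype on DDC in PanCK, 6 for PanCK against IBA1 and 13 for location. TMM gave 1 for genotype on DDC in PanCK and 5 for location. Counts of 1 set to 0 gave 2 for diet in the parenchyma, 1 for genotype on DDC in periportal IBA1 and 6 for PanCK against IBA1. Thinning gave 2 for diet in TrailΔmye periportal IBA1, 0 in the parenchyma, 1 for genotype on DDC in PanCK, 2 for PanCK against IBA1 and 1 for location. Without the ROI as a replicate block, PanCK against IBA1 gave -0.93 for Bhmt, -0.22 for Nnmt and 9 pathway genes, and the block changed no direction.

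With each segment left out in turn, the pathway counts ran from 0 to 2 for diet in WT PanCK, 1 to 2 in TrailΔmye PanCK, 3 to 11 in WT periportal IBA1 and 0 to 2 in the parenchyma. They ran from 0 to 3 and 0 to 1 for genotype on DDC in PanCK and periportal IBA1, 7 to 14 for PanCK against IBA1 and 2 to 9 for location. Nnmt in WT periportal IBA1 segments ran from -2.14 to -1.15 for diet. In the parenchyma, where 1 diet effect was fitted over genotypes that moved apart, the ranges were -0.86 to 0.80 for Bhmt, -1.52 to 0.050 for Nnmt, -0.081 to 2.25 for Bhmt per Alb and -0.89 to 1.39 for Nnmt per Alb. Nnmt held 1 to 4 counts in each WT segment, and the size of a diet difference in WT mice cannot be given from such counts.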
